A study of Mus musculus with 12 samples.

Results

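The genes described here are 40 imprinted genes of the mouse, among them Plagl1 and the growth network in which it is placed. They were taken by symbol from a table of RNA-seq counts with 24470 genes, where all 40 were found, and 39 of them had enough counts to be among the 15572 genes tested. RNA-seq was performed on E14.5 mouse testes, in 6 control libraries (Nr2f2 f/f) and 6 conditional knockout libraries (cKO, Wt1 CreER x Nr2f2 f/f), each made from a pool of 3 testes. NR2F2 (COUP-TFII) is a nuclear receptor of the interstitial cells of the testis, and the comparison asks how the testis transcriptome differs when it is deleted. Both groups carried the floxed allele, and dams carrying both genotypes received tamoxifen at E11.5 and E12.5. Only the cKO carried the tamoxifen-inducible Cre, which is driven from Wt1 and acts in progenitor cells, and according to the study's own description the deletion reached a proportion of the interstitial cells.

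Imprinted genes are expressed mainly or only from the allele inherited from one parent. They lie in domains, each governed by a control region that is DNA-methylated in one parental germline, and within a domain paternally and maternally expressed genes often lie side by side, with a long non-coding RNA on the opposite allele from the protein-coding genes it silences. Many of them act on fetal growth: paternally expressed genes such as Igf2, Mest and Dlk1 tend to promote it and maternally expressed genes such as Igf2r, Cdkn1c, Grb10 and H19 tend to restrain it. Plagl1 (also Zac1) encodes a zinc finger transcription factor that is described as a regulator of other imprinted growth genes. RNA counts of this kind do not separate the parental alleles, so all levels below are sums over both.

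Total counts per library ran from 7044531 to 59404778. The targeted gene, Nr2f2, had 175 ± 8.87 CPM (counts relative to the library size, scaled by TMM) among controls and 75.9 ± 24.5 CPM among cKO libraries (SD, n = 6 each), and every cKO library lay under every control library (log2 fold change -1.21, SE 0.163, edgeR adjusted p = 0.000548). Markers of Sertoli, germ, fetal Leydig and interstitial cells were all detected. In 4 libraries, control 1 and cKO 3, 5 and 6, Xist was between 304 and 891 CPM, whereas it was between 5.15 and 7.68 CPM in the other 8. Xist is transcribed from the silenced X chromosome in female cells, and the labels name the tissue as testis but do not give the sex of the embryos in a pool. The summed level of 4 Y-linked genes (Ddx3y, Eif2s3y, Kdm5d and Uty) was 197 to 258 CPM in these 4 libraries and 287 to 445 CPM in the other 8, so that they were detected in all 12 and lower in the 4. Whether these pools held female tissue was not tested. As 1 is a control and 3 are cKO libraries, values are given below with and without them where a result rests on them.

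Promoter sequences are given for the genes that were lower in cKO testes and have an entry in RefSeq's promoter table (GRCm38.p6, the same build as the mm10 intervals of the counts). They are shown for their CpG content, and the capitals mark every CG. Each is the 250 bases before a transcript start listed by RefSeq, read 5′ to 3′ on the strand of the gene. This start can lie inside the interval on which reads were counted, as it does for Mest and, by a short distance, for Plagl1. The stretches are Plagl1 at chr10:13090582-13090831 (plus strand), Dlk1 at chr12:109452573-109452822 (plus), Mest at chr6:30737800-30738049 (plus), Zim1 at chr7:6696433-6696682 (minus) and Grb10 at chr11:12037421-12037670 (minus). For Mest and Grb10, which have 3 and 2 listed promoters, the most CpG-rich is shown, which in Mest is not the one at the start of the interval.
Plagl1: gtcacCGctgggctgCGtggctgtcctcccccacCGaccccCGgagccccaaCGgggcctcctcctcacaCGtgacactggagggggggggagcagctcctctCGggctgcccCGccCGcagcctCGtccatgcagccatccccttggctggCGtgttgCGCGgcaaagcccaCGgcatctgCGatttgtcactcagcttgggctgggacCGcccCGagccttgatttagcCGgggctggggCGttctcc
Dlk1: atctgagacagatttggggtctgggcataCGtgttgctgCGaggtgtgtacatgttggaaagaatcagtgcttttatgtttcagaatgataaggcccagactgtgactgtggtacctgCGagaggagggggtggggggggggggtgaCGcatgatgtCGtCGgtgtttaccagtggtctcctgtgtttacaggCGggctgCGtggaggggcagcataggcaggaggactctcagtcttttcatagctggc
Mest: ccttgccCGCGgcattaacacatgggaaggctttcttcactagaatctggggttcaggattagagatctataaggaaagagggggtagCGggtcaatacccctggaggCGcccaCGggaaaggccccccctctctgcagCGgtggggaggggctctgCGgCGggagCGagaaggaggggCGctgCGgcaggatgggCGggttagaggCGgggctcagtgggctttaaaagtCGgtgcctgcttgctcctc
Zim1: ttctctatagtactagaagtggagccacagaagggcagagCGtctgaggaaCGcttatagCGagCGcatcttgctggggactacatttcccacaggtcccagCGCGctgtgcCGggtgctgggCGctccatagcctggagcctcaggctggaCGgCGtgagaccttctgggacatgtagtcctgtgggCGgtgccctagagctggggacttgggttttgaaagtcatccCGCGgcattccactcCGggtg
Grb10: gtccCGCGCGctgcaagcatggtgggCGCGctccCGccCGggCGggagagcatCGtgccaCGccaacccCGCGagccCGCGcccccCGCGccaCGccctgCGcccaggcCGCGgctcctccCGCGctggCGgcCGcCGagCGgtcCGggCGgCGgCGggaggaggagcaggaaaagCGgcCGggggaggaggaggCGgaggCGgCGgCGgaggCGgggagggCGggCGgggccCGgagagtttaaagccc
The Plagl1 stretch held 19 CpG and was 70.4% G or C, Grb10 held 40 CpG (81.2%), Mest and Zim1 held 14 each, and Dlk1 held 8. RefSeq promoters of 300 bases (250 before and 50 after the start) were found for 33 of the 40 genes, 50 promoters in all. Taking the most CpG-rich promoter of each gene, the median was 20 CpG for the 5 genes called lower and 14 for the other 28, beside a median of 8 taken the same way over all 27025 genes listed, which have 32851 promoters. Of all promoters, 34.6% had at least 15 CpG, so a high count is not particular to imprinted genes. The letters AGGTCA, the half-site that nuclear receptors such as NR2F2 bind, read on either strand, were in 16.3% of all promoters and in 4 of the 50, those of Igf2r and Airn, 1 of the Igf2 promoters and 1 of the Meg3 promoters. The letters GGGGCCCC, a GC-rich run of the kind that Plagl1 binds, read likewise, were in 1.08% of all promoters and in 3 of the 50, those of Peg3 and Usp29 and 1 of the Ppp1r9a promoters, of which Peg3 and Usp29 lie head to head and share this stretch. A match to such short letters is a description of the sequence and not a binding site.

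Imprinted genes made up 0.967 to 1.19% of all counts in control libraries and 0.872 to 0.955% in cKO libraries, so that the groups did not overlap. H19 gave most counts in both groups, 0.172% of the counts in control and 0.160% in cKO libraries (means of 6). Igf2 came next in control libraries (0.136%), while in cKO libraries Gnas (1203 CPM) lay above Igf2 (1149 CPM). When the mean control CPM was divided by the length of the longest annotated transcript, which need not be the one expressed, H19 was the most abundant (761 CPM per kb), followed by Mest (377), Igf2 (291), Gnas (284) and Grb10 (156). Peg3, Cdkn1c, Dlk1 and Plagl1 stood close together at 95.1, 92.6, 90.2 and 85.8 CPM per kb, and their ranges over the 6 control libraries overlapped. At the other end, Rtl1, Kcnq1, Nap1l5, Magel2, Dio3, Slc22a18 and Phlda2 were all under 1 CPM per kb. Snrpn had 4 counts in the 12 libraries together, and Snurf, which overlaps it on the same strand, had 0. Reads that fall on both can be lost in the counting, so this level is uncertain.

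**Figure D1:**
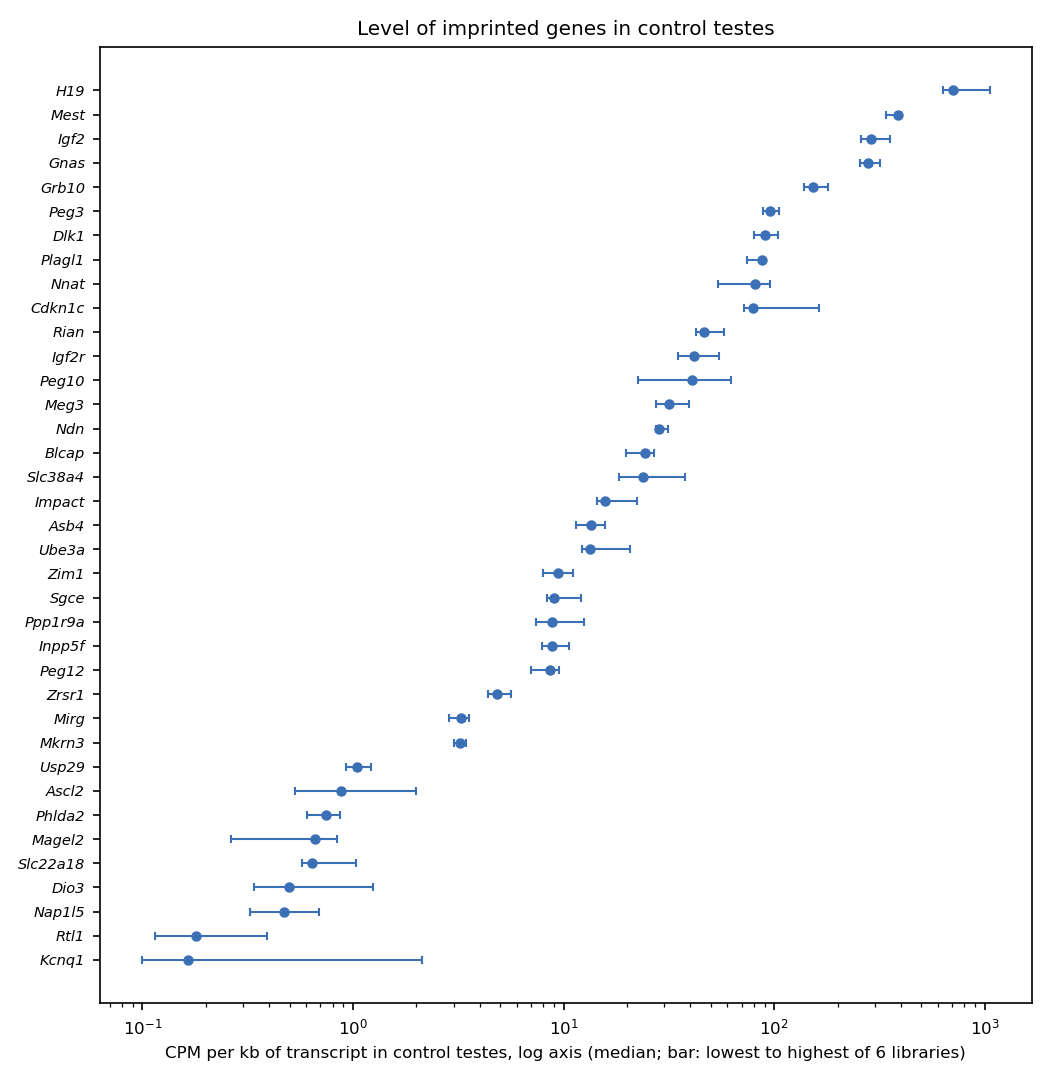
Level of 37 imprinted genes in the 6 control libraries, as CPM per kb of the longest transcript on a log axis; points are medians and bars run from the lowest to the highest library. Airn and Kcnq1ot1, whose annotated lengths differ between gene models, and Snrpn are not drawn. H19 lies at the top, and Kcnq1 and Rtl1 lie at the bottom, Kcnq1 with a wide range.

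In the cKO testes 6 imprinted genes were lower than in control testes and none was higher, at an adjusted p under 0.05 in the quasi-likelihood test of edgeR, adjusted over all genes by Benjamini-Hochberg. The 6 were Plagl1, Dlk1, Mest, Zim1, Sgce and Grb10, which is 15.4% of the 39 tested. Over all 15572 genes tested, 4.85% were lower and 3.28% were higher, 8.13% in all. At an unadjusted p under 0.05 there were 13 imprinted genes lower and 1 higher, beside 13.2% and 12.1% of all genes. DESeq2 called 8 lower and 0 higher, beside 4.94% and 4.17% of all genes. The median log2 fold change of the 39 was -0.11, beside 0.00 over all genes, with 25 below and 14 above 0. The same 6 genes were those in which the 6 control and 6 cKO libraries did not overlap, beside 5.52% of all genes without overlap. Of the 28 imprinted genes that averaged 10 CPM or more, the same 6 were lower, beside 4.96% of all genes at that level. The counts depend on control 1: without it, 10 imprinted genes were lower and 3 were higher, and over all genes 1635 were lower and 1471 higher in place of 756 and 510. All 6 kept their call when any of the 12 libraries was left out, and 4 of them, Plagl1, Dlk1, Mest and Zim1, also when the 4 libraries high in Xist were left out together. By expressed allele, 4 of 21 tested paternally expressed genes were lower (Plagl1, Dlk1, Mest, Sgce) and 2 of 14 maternally expressed genes (Zim1, Grb10).

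**Figure D2:**
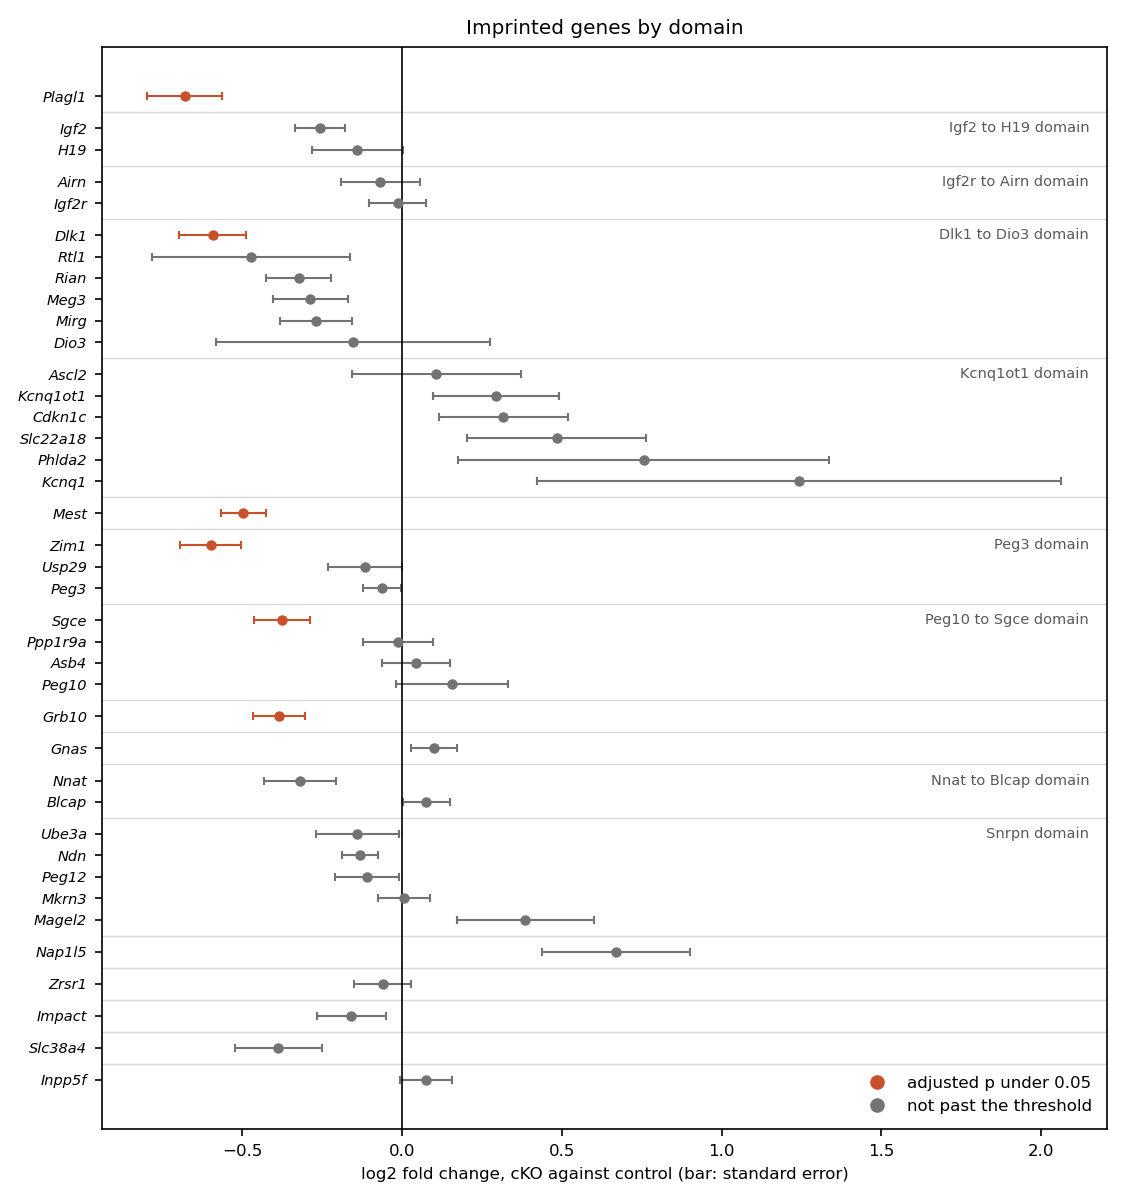
Log2 fold change of the 39 tested imprinted genes in cKO against control testes, with the standard error as a bar, grouped by domain; lines separate the domains and isolated genes stand alone. The 6 genes with an adjusted p under 0.05 all lie left of 0, all 6 genes of the Dlk1 to Dio3 domain have negative values and all 6 genes of the Kcnq1ot1 domain positive ones, of which Phlda2 and Slc22a18 turn negative without the 4 libraries high in Xist.

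Plagl1 (Entrez 22634, chr10:13090788-13131694) had the largest decrease of the 6 with all 12 libraries in the fit. Its level was 391 to 473 CPM in control libraries with a median of 461, and 196 to 355 CPM in cKO libraries with a median of 295. Every cKO library lay under every control library, and the fitted cKO level was 62.5% of the control level. The log2 fold change was -0.68 (SE 0.117, edgeR adjusted p = 0.0028), and it lay between -0.76 and -0.59 when single libraries were left out. Without the 4 libraries high in Xist it was -0.52 (adjusted p = 0.00343), the lowest cKO levels being those of cKO 5 and cKO 6, both of that set. In that fit Zim1 (-0.62) and Mest (-0.54) decreased more than Plagl1. Without cKO 5 alone Zim1 did so too (-0.63 beside -0.59). Hymai, a non-coding gene within Plagl1 on the same strand, had 218 counts in all beside 113023 for Plagl1.

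The protein relatives of Plagl1 are Plag1 and Plagl2, which share its zinc fingers and are not imprinted. Plag1 averaged 48.8 CPM in control and 40.0 CPM in cKO libraries ( log2 fold change -0.27, adjusted p = 0.131), and Plagl2 had 69.3 and 73.7 CPM (0.09, adjusted p = 0.589), so neither passed the test.

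Mest (chr6:30733506-30748466) encodes a membrane protein of the alpha/beta-hydrolase family found in mesodermal tissue. It ranged from 909 to 1062 CPM in control libraries (median 1031) and from 623 to 802 CPM in cKO libraries (median 711). The groups stood more than 100 CPM apart, and the spread within each group was small. The log2 fold change was -0.50 (SE 0.0701, adjusted p = 0.000765), the smallest adjusted p of the imprinted genes. Copg2, which overlaps Mest on the opposite strand, did not pass the test (131 and 137 CPM, log2 fold change 0.06, adjusted p = 0.593).

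Grb10 (chr11:11930499-12037420) encodes an adaptor protein that binds insulin and IGF receptors and restrains growth, and outside the brain it is expressed from the maternal allele. Control libraries held 704 to 907 CPM (median 770) and cKO libraries 507 to 679 CPM (median 607). The highest cKO library lay just under the lowest control library, which was control 1. The log2 fold change was -0.38 (SE 0.0824, adjusted p = 0.0105). Without the 4 libraries high in Xist it was -0.30 with an adjusted p of 0.0641 and so no longer called.

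**Figure D3:**
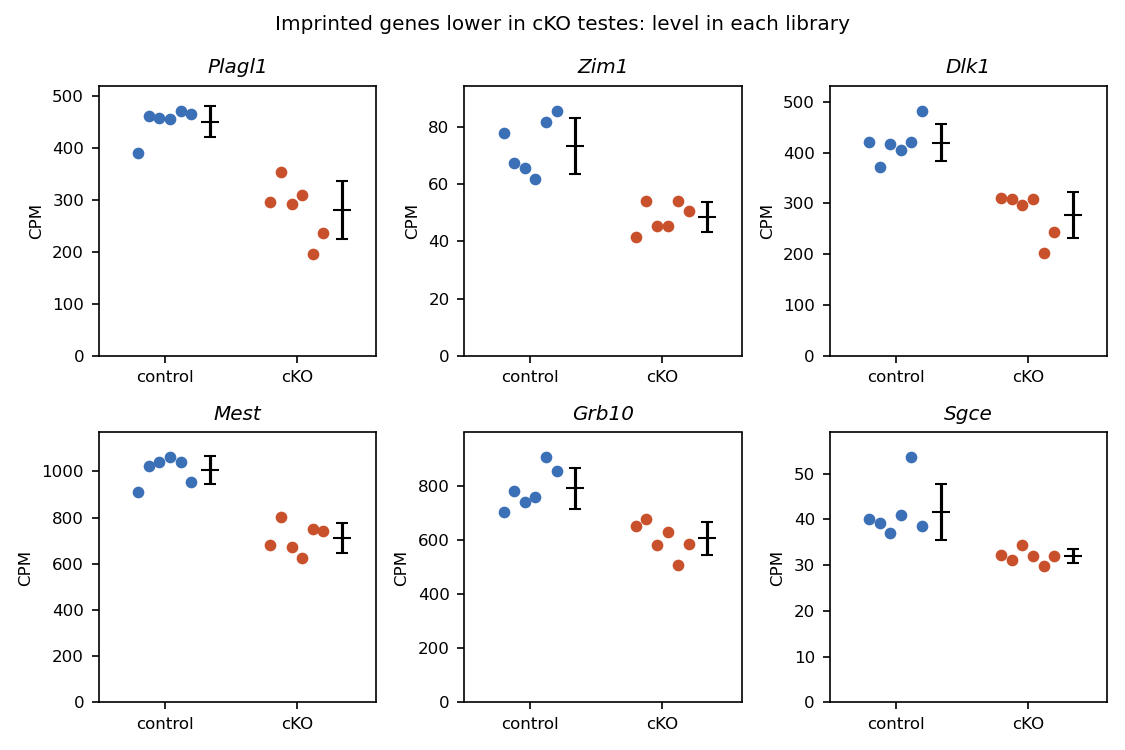
CPM in each library of the 6 imprinted genes lower in cKO testes, for 6 control (blue) and 6 cKO (orange) libraries, with the mean and SD at the right of each group; axes start at 0. In each panel all cKO libraries lie under all control libraries, most narrowly in Sgce and Grb10.

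The Dlk1 to Dio3 domain on chromosome 12 has paternally expressed protein-coding genes (Dlk1, Rtl1, Dio3) and maternally expressed non-coding RNAs (Meg3, Rian, Mirg) that also carry snoRNAs and miRNAs. The fitted log2 fold changes of all 6 were negative (median -0.31, and -0.22 without the 4 libraries high in Xist, all 6 still negative), but only Dlk1 passed the test. Dio3 turned positive without control 1 or cKO 4. Dlk1 (chr12:109452823-109463336), a transmembrane relative of the Notch ligands found on progenitor cells, had 371 to 483 CPM in control libraries (median 419) and 202 to 310 CPM in cKO libraries (median 302). The groups did not overlap, and the 2 lowest libraries were cKO 5 and cKO 6. The log2 fold change was -0.59 (SE 0.105, adjusted p = 0.00323), and -0.43 (adjusted p = 0.0146) without the 4 libraries high in Xist.

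Meg3 ranged from 398 to 570 CPM in control (median 459) and from 317 to 485 CPM in cKO libraries (median 380), with a log2 fold change of -0.29 (SE 0.118, adjusted p = 0.147). Rian ranged from 342 to 469 CPM (median 376) and from 253 to 377 CPM (median 306), with a log2 fold change of -0.32 (SE 0.102, adjusted p = 0.0667). For both RNAs the groups overlapped, and 3 and 4 of the 6 cKO libraries, respectively, lay under every control library. Rian passed the test when control 1 (adjusted p = 0.0274) or cKO 4 was left out, and by DESeq2 (adjusted p = 0.0331). Mirg, at 12.3 and 10.1 CPM (means), had a log2 fold change of -0.27 (adjusted p = 0.152). Rtl1, a gag-like gene derived from a retrotransposon, and Dio3, the deiodinase that inactivates thyroid hormone, were at 0.463 to 2.73 CPM in all libraries, with log2 fold changes of -0.47 (adjusted p = 0.354) and -0.15 (0.848).

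Igf2 and H19 share enhancers on chromosome 7 and are expressed from opposite alleles, Igf2, a growth factor of the fetus, from the paternal and the non-coding H19 from the maternal one. Igf2 had 1215 to 1681 CPM in control libraries (median 1355) and 1048 to 1244 CPM in cKO libraries (median 1146). One cKO library, cKO 6, reached into the control range and the other 5 lay under it. The log2 fold change was -0.26 (SE 0.0784), with an edgeR adjusted p of 0.0597 that misses the threshold, while DESeq2 gave 0.0189. H19 had 1445 to 2410 CPM in control (median 1619) and 1239 to 2008 CPM in cKO libraries (median 1504), with a log2 fold change of -0.14 (SE 0.142, adjusted p = 0.556). The highest H19 level was that of control 1, and the groups overlapped over most of their range.

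Igf2r, the receptor that takes up IGF2 for degradation and is silenced on the paternal allele by the antisense RNA Airn, was at nearly the same level in both groups. It had 310 to 488 CPM in control (median 370) and 362 to 396 CPM in cKO libraries (median 371), with a log2 fold change of -0.01 (SE 0.0885, adjusted p = 0.943). Airn had 9.48 and 9.06 CPM (means, log2 fold change -0.07, adjusted p = 0.762).

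Among other genes of the IGF axis and PLAG family, from a list of 17 that were all tested, 4 were lower and 1 was higher, beside 4.85% and 3.28% of all genes (median log2 fold change over the list -0.13). The 4 were binding proteins that hold IGF ligands outside the cell. Igfbp3 had 365 and 222 CPM in control and cKO (means, log2 fold change -0.72, adjusted p = 0.000975), Igfbp5 had 1701 and 999.9 CPM (-0.77, 0.00119), Igfbp4 had 345 and 270.0 CPM (-0.35, 0.00749) and Igfbp6 had 5.63 and 3.28 CPM (-0.75, 0.00855). Igf2bp1, an RNA-binding protein that binds Igf2 mRNA, was higher (74.5 and 99.0 CPM, log2 fold change 0.41, adjusted p = 0.0245), a call that was lost when control 4, control 6, cKO 1 or cKO 4 was left out. The receptors Igf1r (log2 fold change 0.09, adjusted p = 0.638) and Insr (0.02, 0.925) and the ligand Igf1 (-0.20, 0.243) did not pass the test.

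The Kcnq1ot1 domain lies beside Igf2 and H19 on chromosome 7, and there the paternally expressed antisense RNA Kcnq1ot1 silences a row of maternally expressed genes. The fitted log2 fold changes of its 6 genes were all positive (median 0.40), and none passed the test. Without the 4 libraries high in Xist the median was 0.22 and 2 of the 6 were negative, Phlda2 (-0.45) and Slc22a18 (-0.04). Phlda2 was also negative without cKO 6, and Ascl2 without control 4. Cdkn1c (p57), an inhibitor of cyclin-dependent kinases that restrains growth, had 136 to 311 CPM in control libraries (median 150) and 160 to 285 CPM in cKO libraries (median 209), with a log2 fold change of 0.32 (SE 0.201, adjusted p = 0.338). The highest value of all was that of control 1, and the other 5 control libraries lay at 136 to 169 CPM. Kcnq1ot1 had a log2 fold change of 0.29 (SE 0.197, adjusted p = 0.363) and the potassium channel gene Kcnq1 one of 1.24 (SE 0.820, adjusted p = 0.357). Without control 1, when all remaining libraries high in Xist are cKO libraries, Cdkn1c (log2 fold change 0.56, adjusted p = 0.0113), Kcnq1ot1 (0.55, 0.00726) and Kcnq1 (3.17, 0.0104) were all higher in cKO testes.

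Levels of 3 of the 39 tested imprinted genes (7.69%) did not overlap between the libraries high in Xist and the rest, a share near the 8.22% of all genes, so that it is no result about imprinted genes as a group. Kcnq1 had 6.47 to 7.04 CPM in the 4 libraries high in Xist and 0.302 to 1.13 CPM in the other 8, and Cdkn1c had 215 to 311 and 136 to 203 CPM. Nnat went the other way, with 78.5 to 91.3 CPM in the 4 libraries and 93.7 to 139 CPM in the other 8. Among the other 8 libraries alone, 5 control and 3 cKO, Kcnq1 was higher in cKO (log2 fold change 1.14, adjusted p = 0.0489), while Cdkn1c (0.32, 0.0727) and Kcnq1ot1 (0.45, 0.0680) did not pass the test. Phlda2, a growth-restraining gene of the placenta, was at 2.31 CPM in cKO 5 and cKO 6 and at 0.144 to 0.659 CPM in the other 10 libraries.

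The same 4 libraries also differed in markers of other cells. A list of 6 genes of meiosis and female germ cells summed to 452 to 977 CPM in them and 155 to 286 CPM in the other 8, 6 genes of ovarian supporting cells to 128 to 295 and 54.6 to 85.0 CPM, and 5 genes of the mesonephric epithelium to 60.2 to 85.9 and 44.3 to 54.4 CPM. Most of the mesonephric sum came from 1 gene, Emx2. It averaged 44.9 CPM in control and 40.3 CPM in cKO libraries, of means of 54.2 and 55.8 CPM for the whole list. No gene of these lists was at 0 in all libraries. Their part in the levels of Kcnq1, Cdkn1c and Nnat was not tested.

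**Figure D4:**
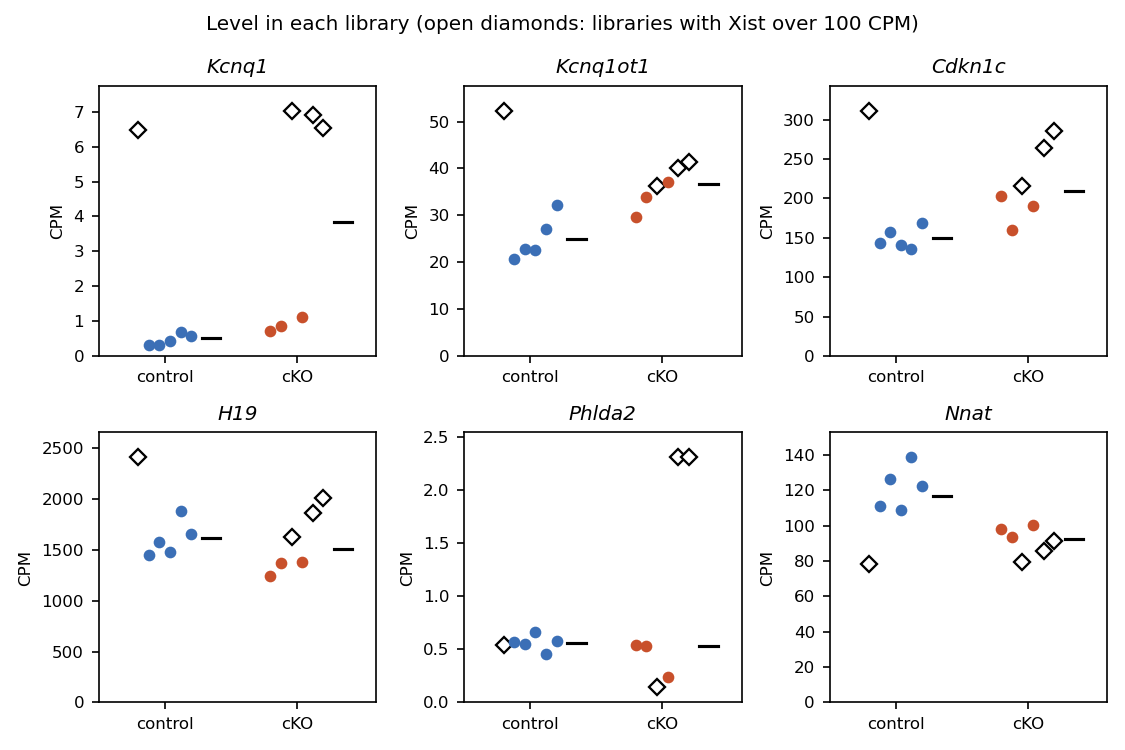
CPM in each library of 6 imprinted genes, with open diamonds for the 4 libraries with Xist over 100 CPM (control 1 and cKO 3, 5 and 6), filled points for the others (blue control, orange cKO) and a black line for the group median; axes start at 0. Diamonds and points are fully separate for Kcnq1, Cdkn1c and Nnat, which is 3 of 39 genes beside 8.22% of all genes, and overlap for Kcnq1ot1, H19 and Phlda2.

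The remaining genes of the domain were low. Slc22a18, a transporter, was at 1.12 and 1.56 CPM (means, log2 fold change 0.48, adjusted p = 0.294) and Ascl2, a transcription factor of the trophoblast, at 1.63 and 1.78 CPM (0.11, 0.827). Of 9 tested non-member genes that lie in or next to these 2 domains on chromosome 7, 2 were lower in cKO, beside 4.85% of all genes, the leukocyte protein gene Lsp1 (197 and 114 CPM, log2 fold change -0.78, adjusted p = 0.000994) and the channel gene Trpm5 (42.6 and 27.9 CPM, -0.60, 0.00130).

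The Peg3 domain on chromosome 7 holds Peg3 and Usp29, both paternally expressed, and the maternally expressed zinc finger gene Zim1. Zim1 (chr7:6675443-6696432) had 61.7 to 85.6 CPM in control libraries (median 72.5) and 41.5 to 54.0 CPM in cKO libraries (median 47.8). The groups did not overlap, and the log2 fold change was -0.60 (SE 0.0956, adjusted p = 0.00167). Peg3, a zinc finger protein abundant in stromal and progenitor cells, had 766 to 919 CPM in control (median 828.9) and 745 to 821 CPM in cKO libraries (median 807). Its log2 fold change was -0.06 (SE 0.0593, adjusted p = 0.525), and Usp29, at 8.05 and 7.43 CPM (means), had -0.11 (adjusted p = 0.552).

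The Peg10 to Sgce domain on chromosome 6 holds the head-to-head, paternally expressed genes Peg10, derived from a retrotransposon, and Sgce, which encodes epsilon-sarcoglycan of the dystrophin complex. Sgce (chr6:4674350-4747204) had 37.0 to 53.6 CPM in control (median 39.6) and 29.7 to 34.3 CPM in cKO libraries (median 32.1), without overlap. Its log2 fold change was -0.38 (SE 0.0864, adjusted p = 0.0158), with -0.39 and an adjusted p of 0.0736 without the 4 libraries high in Xist. With the replicate number as a block it was -0.36 (adjusted p = 0.0524), so that Sgce was called in neither. Peg10 had 151 to 415 CPM in control (median 272) and 284 to 325 CPM in cKO libraries (median 294), with a log2 fold change of 0.16 (SE 0.175, adjusted p = 0.596). The cKO libraries lay within the wide control range, whose ends were control 5 and control 1. Ppp1r9a (87.9 and 87.2 CPM) and Asb4 (44.5 and 45.8 CPM), which lie further along the domain, had log2 fold changes of -0.01 (adjusted p = 0.961) and 0.04 (0.825).

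Neighbouring genes were then compared within each library by the log2 ratio of their counts, which needs no scaling between libraries, with an exact two-sided permutation test (924 arrangements of the group labels) and adjustment over the 7 pairs. The log2 ratio of Peg3 to Zim1 was 3.50 ± 0.204 in control and 4.04 ± 0.139 in cKO libraries (SD, n = 6, exact permutation p = 0.00216, adjusted p = 0.0152), and it was higher in all 6 cKO libraries than in any control library. This p is the smallest the design can give. Of these genes Zim1 fell and Peg3 did not pass the test. The ratio did not pass without the 4 libraries high in Xist (exact permutation, adjusted p = 0.125). Nor did it in pairs of the same replicate number (exact sign-flip test, adjusted p = 0.219). Both have fewer arrangements, which raises the smallest p. No other pair passed with all 12 libraries. The log2 ratio of Peg10 to Sgce was 2.62 ± 0.640 and 3.22 ± 0.0532 (exact p = 0.0152, adjusted p = 0.0530), that of Dlk1 to Meg3 was -0.15 ± 0.156 and -0.46 ± 0.223 (exact p = 0.0346, adjusted p = 0.0795) and that of Nnat to Blcap was 1.17 ± 0.373 and 0.78 ± 0.182 (exact p = 0.0455, adjusted p = 0.0795). These 3 pairs passed the threshold when control 1 was left out, and Dlk1 to Meg3 also when cKO 1 was.

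Like Dlk1 to Meg3, 3 further pairs set a coding gene against a non-coding RNA of the opposite allele, and they did not pass the test. The log2 ratio of Igf2 to H19 differed by -0.11 between cKO and control (exact permutation p = 0.301), that of Igf2r to Airn by 0.05 (exact p = 0.773) and that of Cdkn1c to Kcnq1ot1 by -0.01 (exact p = 0.924). For Igf2 to H19 the lowest ratios were those of cKO 5 (-0.72) and cKO 6 (-0.69), beside -0.52 to -0.22 in control libraries.

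**Figure D5:**
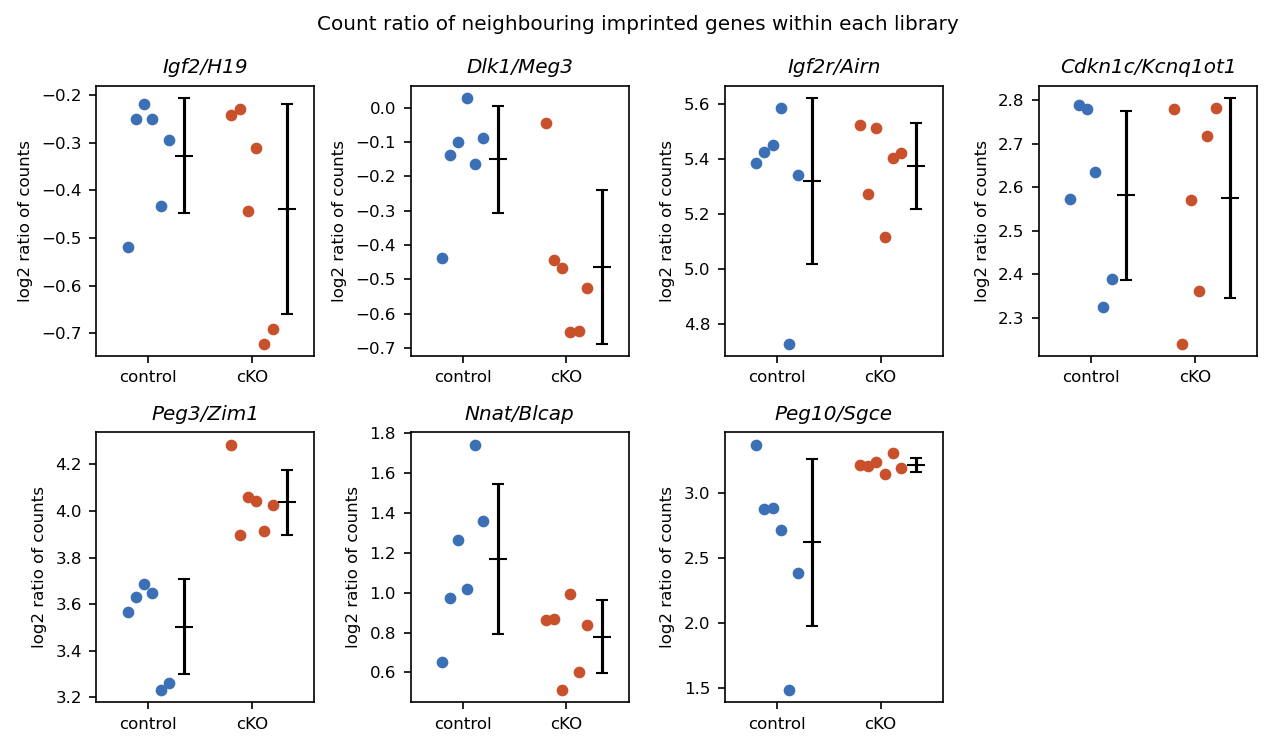
Log2 ratio of the counts of 7 pairs of neighbouring imprinted genes in each library, for 6 control (blue) and 6 cKO (orange) libraries, with the mean and SD at the right of each group; each panel has its own axis, which does not start at 0. The Peg3 to Zim1 ratio is higher in every cKO library than in every control library, and the other 6 pairs overlap between groups.

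The other imprinted genes did not pass the test. Gnas, which encodes the stimulatory G protein alpha subunit and is imprinted in only some tissues, had 1004 to 1249 CPM in control (median 1103) and 1061 to 1303 CPM in cKO libraries (median 1240), with a log2 fold change of 0.10 (SE 0.0718, adjusted p = 0.392). Nnat, a small membrane proteolipid, had 78.5 to 139 CPM (median 117) and 79.6 to 101 CPM (median 92.5), with a log2 fold change of -0.32 (SE 0.113, adjusted p = 0.100). Blcap, which contains Nnat in an intron on the opposite strand, had 50.3 and 53.2 CPM (means, 0.08, adjusted p = 0.538).

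In the Snrpn domain of chromosome 7, Ndn, a growth-suppressing MAGE protein, had 101 to 116 CPM in control (median 105) and 87.8 to 102 CPM in cKO libraries (median 97.8). Of the 6 cKO libraries 5 lay under every control library, but the difference was small (log2 fold change -0.13, SE 0.0558, adjusted p = 0.163). Ube3a, a ubiquitin ligase imprinted in neurons, had 120 to 203 CPM (median 131) and 119 to 153 CPM (median 127), with a log2 fold change of -0.14 (SE 0.129, adjusted p = 0.513), and its highest values were those of control 5 and control 6, the 2 shallowest control libraries. Peg12, Mkrn3 and Magel2 were at 22.1, 8.20 and 2.94 CPM in control (means), with log2 fold changes of -0.11 (adjusted p = 0.513), 0.01 (0.972) and 0.39 (0.273).

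Another 5 imprinted genes stand outside these domains. Slc38a4, an amino acid transporter, had 103 and 78.5 CPM (means, log2 fold change -0.39, adjusted p = 0.0977), and Impact, a regulator of translation under amino acid shortage, had 65.7 and 58.6 CPM (-0.16, 0.368). Zrsr1, a splicing factor gene, had 21.7 and 20.7 CPM (-0.06, 0.692) and the phosphatase gene Inpp5f 42.2 and 44.6 CPM (0.07, 0.587). Nap1l5, a nucleosome assembly protein gene, had 0.892 and 1.46 CPM, with a log2 fold change of 0.67 (adjusted p = 0.0938) and 4 of 6 cKO libraries over every control library, and it was the one gene with a higher level at an unadjusted p under 0.05.

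Of 33 further genes listed as imprinted in the mouse and found in the table, 28 were tested and 4 were lower in cKO testes, beside 4.85% of all genes (median over the 28, -0.16). Whether the 28 are imprinted in the fetal testis was not tested. Klf14, a maternally expressed transcription factor gene that lies near Mest, had 3.70 and 1.39 CPM in control and cKO (means, log2 fold change -1.42, adjusted p = 0.00297). The matrix proteoglycan gene Dcn had 373 and 189 CPM (-0.98, 0.00430), the tetraspanin gene Cd81 had 365 and 302 CPM (-0.27, 0.00942) and Begain, at the edge of the Dlk1 to Dio3 domain, had 10.8 and 8.84 CPM (-0.29, 0.0363). None was higher by edgeR or DESeq2. At an unadjusted p under 0.05 in edgeR, 7 were lower and 3 higher, beside 13.2% and 12.1% of all genes.

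Of 20 tested genes that set or keep imprints, 1 was lower and none was higher by edgeR (median -0.05). This share is near the 4.85% of all genes called lower, so that it is no result about this list. At an unadjusted p under 0.05, 3 were lower and 4 higher, beside 13.2% and 12.1% of all genes. DESeq2 called 1 of the 20 higher, beside 4.17% of all genes. The 1 lower by edgeR was Dnmt3l, the cofactor of de novo DNA methylation in male germ cells (14.9 and 5.46 CPM, log2 fold change -1.43, adjusted p = 0.0412), with 2 of 6 cKO libraries under every control library, and this call was lost without any one of 10 of the 12 libraries. The zinc finger proteins that protect imprints, Zfp57 (log2 fold change -0.10, adjusted p = 0.384) and Zfp445 (-0.07, 0.519), and the maintenance methyltransferase Dnmt1 (0.28, 0.149) did not pass the test.

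Cell type markers moved between the groups as well. In whole-testis RNA, fewer cells of a type and less RNA per cell cannot be told apart. The counts of markers called stand beside 4.85% of all genes lower and 3.28% higher. The summed level of 6 interstitial progenitor markers was 988 to 1293 CPM in control and 634 to 1102 CPM in cKO libraries, with 2 of 6 lower and 1 higher. That of 6 contractile cell markers was 583 to 711 and 352 to 535 CPM, without overlap and with 5 of 6 lower, and that of 7 fetal Leydig cell markers was 1897 to 3211 and 1057 to 2041 CPM, with 5 of 7 lower. In the 4 libraries high in Xist these sums, in the same order, were 634 to 988, 352 to 583 and 1057 to 1897 CPM. In the other 8 they were 947 to 1293, 446 to 711 and 1560 to 3211 CPM. The 6 macrophage markers summed to 34.6 to 51.9 and 55.3 to 70.0 CPM, without overlap and with 3 of 6 higher. The 8 Sertoli cell markers (838 to 1278 and 740 to 1253 CPM) and the 8 germ cell markers (1222 to 2159 and 1673 to 1991 CPM) overlapped, with none called. No marker of these lists was at 0 in all libraries. The part of these cell types in the lower levels of Plagl1, Dlk1, Mest, Zim1, Sgce and Grb10 was not tested.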

How the data were processed

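The authors trimmed reads with Trim Galore 0.6.7, aligned them to mm10 with STAR 2.5 and counted read pairs by strand on RefSeq Curated gene models with featureCounts (Subread 1.5.0-p1). The deposited table holds these counts as whole numbers, not normalized or filtered, for 12 libraries, all of which were used. The labels do not say that pools came from separate litters, so p-values measure the spread between pools.

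The analysis used edgeR 4.0.16 under R 4.3.3: TMM scaling, filterByExpr (at least 10 counts, total at least 15), then glmQLFit and glmQLFTest with no covariate, adjusted by Benjamini-Hochberg with a threshold of 0.05. The standard error is the log2 fold change divided by the square root of F. On counts simulated for this comparison over 15572 genes, it recovered 84 of 100 genes changed by 1 and 91 of 100 changed by 2 on the log2 scale, and 17 of its 192 calls were false, a larger share than the threshold of 0.05. The simulation held no smaller changes, so it does not give the recovery for changes like those of the 6 genes called (-0.68 to -0.38). Ratios of neighbouring genes were log2 of counts plus 1, compared by an exact permutation test (scipy 1.17.1). Alternatives were DESeq2 1.42.0, other scalings and filters, a replicate block and libraries left out. Counting error and the spread between pools were not separated.

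Full values were given for Plagl1, genes called and genes that averaged 100 CPM or more. Of each further list at most 4 called genes were named, with the smallest adjusted p; other genes of these lists, such as Igf2bp1, the relatives of Plagl1, the receptors, Copg2 and the imprint regulators, were named after their values were seen. The 4 Y-linked genes were added after the data were seen. The imprinted genes and all lists were chosen with earlier results of these data known. Lengths came from GENCODE M21 and promoters from RefSeq.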

Additional observations from a re-analysis of the deposited data

Results flagged for a closer look

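In 12 of 92 groups of 6 libraries examined, 1 library stood far from the other 5 by Dixon's criterion, where chance gives about 1 in 20 groups, or 4.6 of 92. Control 1 accounted for 5 of them. It was low in Plagl1 (391 CPM, the other control libraries 456 to 473) and high in Cdkn1c (311 CPM, others 136 to 169), Kcnq1 (6.47 CPM, others 0.302 to 0.689), Kcnq1ot1 (52.4 CPM, others 20.7 to 32.1) and Ppp1r9a (119 CPM, others 70.4 to 86.3). Control 1 was also the library with the highest Xist, at 891 CPM.

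Control 5 was high in Sgce (53.6 CPM, others 37.0 to 41.1) and low in the log2 ratio of Igf2r to Airn (4.73, others 5.34 to 5.59). Among cKO libraries, cKO 5 was high in Rtl1 (1.90 CPM, others 0.775 to 1.12) and low in Ndn (87.8 CPM, others 97.0 to 102), cKO 3 was high in Peg10 (325 CPM, others 284 to 298), and cKO 1 was high in the log2 ratio of Dlk1 to Meg3 (-0.0455, others -0.65 to -0.44). Control 3 was high in Ascl2 (3.19 CPM, others 0.847 to 1.59), a gene with few counts.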

How the results depend on the processing

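Plagl1, Dlk1, Mest and Zim1 stayed lower in cKO with an adjusted p under 0.05 under all 20 alternatives. Leaving out single libraries gave 6 to 10 imprinted genes lower and 0 to 3 higher, the upper ends without control 1, when Igf2, Rian, Nnat and Slc38a4 were also lower and Cdkn1c, Kcnq1 and Kcnq1ot1 higher, and over all genes 1635 were lower and 1471 higher in place of 756 and 510. Without the 4 libraries high in Xist, 4 were lower and 1, Kcnq1, was higher, beside 529 lower and 574 higher of all 15586 genes tested. The cause was not tested.

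The replicate numbers did not pair the libraries (correlations of same-numbered deviations from -0.334 to 0.242, and 0 of 6 numbers matched best with their own), and with a replicate block 5 imprinted genes were lower, without Sgce (adjusted p = 0.0524), and 539 genes were lower and 392 higher in all. The log2 ratio of Peg3 to Zim1 differed by 0.53 in pairs of the same number (exact sign-flip test, adjusted p = 0.219) and by 0.58 without the 4 libraries high in Xist (exact permutation, adjusted p = 0.125), and did not pass the threshold in either, where fewer arrangements raise the smallest p. With single libraries left out, the log2 ratio Dlk1/Meg3 differed by -0.40 to -0.28 (past the threshold without control 1, -0.37, or cKO 1, -0.40), the log2 ratio Nnat/Blcap by -0.49 to -0.28 (past it without control 1, -0.49) and the log2 ratio Peg10/Sgce by 0.37 to 0.75 (past it without control 1, 0.75).

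Of 1111 values recomputed over 57 results, 1066 kept their side of the threshold (or, for counts of genes, stayed within 1.5 times). No call changed direction, and 25 values that passed the threshold in neither fit changed sign. Rtl1, Dio3, Phlda2, Ascl2, Slc22a18 and Nap1l5 averaged under 2 CPM, where few counts stand behind a value in the shallowest libraries; counting error and the spread between pools were not separated.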
